A study of Mus musculus with 2 samples.

Results

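The nuclei described here are epithelial nuclei of the newborn mouse ureter that carried RNA of at least 2 of 5 genes, Cdh20, Htr4, Ksr2, Gm28856 and Pcbp3, with little RNA of basal or dividing cells. They numbered 590 of 14590 nuclei, 116 of 5528 in the DNp63cKO library and 474 of 9062 in the control library. UMIs (unique molecular identifiers) count RNA molecules. A nucleus was kept if it showed at least 300 genes and if no more than 5% of its UMIs were mitochondrial. It was taken as epithelial when 3 or more of 12 epithelial genes (Cdh1, Epcam, Krt18, Grhl2, Elf3, Esrp1, Macc1, Ehf, Myo5b, Cldn4, Cldn7, Rab25) had a UMI and at most 1 of 7 genes of other lineages did (Myh11, Myocd, Col1a2, Col3a1, Pdgfra, Ptprb, Pecam1). Of the nuclei with 3 or more epithelial genes, the limit on other lineages left out 1729 of 2733 in DNp63cKO and 2112 of 4834 in control. Among those left out, 245 and 509 had 2 or more of the 5 genes. Nuclei with 2 or more of Mki67, Top2a and Cenpf were set aside as cycling, and those with 3 or more UMIs over Krt5, Lamb3, Itgb4 and Itga3 as basal. The rule therefore fixes that the state is high in its 5 genes and low in the basal and cycling ones, and those values are given below as a description only.

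DNp63cKO stands for mice with the genotype Pax2-cre/+;DNp63fl/fl;R26mTmG/+, in which a Cre driver of the nephric duct lineage deletes floxed ΔNp63, an isoform of p63 made from Trp63, beside a Cre-switched fluorescent reporter. The label of the control pool says only wt. Whether control mice carried the Cre driver or the reporter is not given, and the groups may differ in these as well. Ureters were taken at postnatal day 0 and pooled by genotype, 14 mice in DNp63cKO and 13 in control, with 1 single-nucleus RNA library from each pool. Each group therefore has no replicate, no test between groups was possible, and every difference below lies between 2 libraries or between nuclei of 1 library.

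The urothelium is the layered, watertight lining of the ureter and bladder. Basal cells sit on the basement membrane and carry p63, intermediate cells lie above them, and superficial cells face the urine and cover their surface with plaques of uroplakin proteins. Of the genes that define the state, Cdh20 encodes a classical cadherin that binds cells to each other, Htr4 a serotonin receptor that raises cAMP, Ksr2 a scaffold of the RAF, MEK and ERK kinases, and Pcbp3 a protein that binds cytosine-rich RNA. Gm28856 is a gene model annotated as a long intergenic non-coding RNA.

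On GRCm38 (mm10) with GENCODE M21 annotation, Cdh20 spans chromosome 1 from 104768529 to 104995481 and Gm28856 the same chromosome from 130766384 to 130784433. Ksr2 lies on chromosome 5 from 117414000 to 117775003, like these on the plus strand, and Pcbp3 on the minus strand of chromosome 10 from 76761857 to 76961887. Apart from Gm28856, at 18.05 kb, the state genes are long. The median of the 5 was 200.03 kb, against 28.3 kb over the 9336 genes compared further on. The 20 higher and 12 lower genes named below had medians of 74.8 and 175 kb, so length does not mark the state genes alone. The promoters of Cdh20 and Ksr2, the state genes with an entry in the RefSeq promoter table, and of Pla2r1, the gene outside the rule with the highest ratio to other epithelium when the lower of the 2 libraries is taken, are shown because these genes were high in the same nuclei. Each is the 250 bases before the RefSeq start on GRCm38.p6, written 5′ to 3′ on the gene's strand. Capitals mark TEAD (GGAATG) or KLF (CCACCC) letters on either strand.
Cdh20, chr1:104768270-104768519, plus strand: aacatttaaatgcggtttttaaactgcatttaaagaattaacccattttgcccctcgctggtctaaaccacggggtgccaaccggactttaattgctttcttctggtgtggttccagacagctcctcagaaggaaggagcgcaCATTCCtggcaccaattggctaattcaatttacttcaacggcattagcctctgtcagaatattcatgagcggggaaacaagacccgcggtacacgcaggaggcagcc
Ksr2, chr5:117413752-117414001, plus strand: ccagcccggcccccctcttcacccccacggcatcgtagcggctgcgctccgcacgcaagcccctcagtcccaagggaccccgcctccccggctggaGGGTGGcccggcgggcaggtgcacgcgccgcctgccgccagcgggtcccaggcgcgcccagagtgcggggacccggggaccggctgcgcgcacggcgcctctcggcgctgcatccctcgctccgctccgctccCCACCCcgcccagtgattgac
Pla2r1, chr2:60553309-60553558, minus strand: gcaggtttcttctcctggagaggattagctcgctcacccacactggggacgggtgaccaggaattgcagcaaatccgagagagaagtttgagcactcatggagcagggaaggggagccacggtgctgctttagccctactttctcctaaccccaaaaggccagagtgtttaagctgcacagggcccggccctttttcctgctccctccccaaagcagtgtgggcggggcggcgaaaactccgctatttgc

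None of the 10 motifs searched, on both strands, was in more than 1 of the 3 windows. Ksr2 was rich in G and C (78.0%, against a median of 52.4% over 32851 promoter windows), Cdh20 was at 47.6% and Pla2r1 at 57.6%. TEAD letters stood once in the Cdh20 window and in 12.6% of all windows, and KLF letters at 2 places in the Ksr2 window and in 28.1% of all. The spaced core of p53 and p63 sites was in the Ksr2 window at 4 places, in neither of the others, and in 63.5% of all windows. The other motifs were in none of the 3 windows: the site of GATA factors (letters AGATAA, in 9.99% of all), GRHL (AACCGGTT, 0.116%), AP-1 (TGANTCA, 6.75%), the cAMP response element (TGACGTCA, 1.55%), its core TGACG (17.8%), forkhead (TGTTTAC, 3.17%) and the PPAR and RXR direct repeat (0.0335%). A match is a match of letters, not a site, and TGACG lies inside the longer cAMP element.

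Most DNp63cKO members passed the rule narrowly, and about as many control members did as did not. In DNp63cKO 89 of 116 members had exactly 2 of the 5 genes, 21 had 3, 5 had 4 and 1 had all 5. In control 236 of 474 had 2, 148 had 3, 68 had 4 and 22 had all 5. Just outside the rule stood the nuclei with 1 of the 5 genes, 239 in DNp63cKO and 495 in control. At the basal limit, 9 and 39 members had 2 basal UMIs, while 3 and 14 nuclei with 3 such UMIs were left out. Members were also deeper than other epithelium: their median was 1648.5 UMIs in DNp63cKO and 2276 in control, against 1313 and 1158.

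The levels of the 5 genes inside the state are set in large part by the rule. Cdh20 was at 161 CPM (the gene's share of all UMIs of the class, on the usual CPM scale) in DNp63cKO members and 207 CPM in control members, against 11.1 and 14.2 CPM in other epithelium, which means the epithelial nuclei that were neither state, basal nor cycling (661 in DNp63cKO and 1648 in control). Htr4, on the plus strand of chromosome 18 from 62324204 to 62496577, was at 345 and 370 CPM, against 30.3 and 72.2 CPM. Ksr2 was at 276 and 378 CPM, against 40.4 and 44.7 CPM. Stromal nuclei, with 3 or more mesenchymal genes (Myh11, Myocd, Col1a2, Col3a1, Pdgfra) and at most 1 epithelial gene, give a background level, at 5.83 and 2.88 CPM for Cdh20 and 14.2 and 15.4 CPM for Htr4. Gm28856 was at 326 and 368 CPM in the state, against 30.3 and 22.6 CPM, and Pcbp3, the most widely seen of the 5, at 602 and 510 CPM, against 193 and 132 CPM. Of 981 stromal nuclei in each library, 0.612% in DNp63cKO and 0.510% in control had 2 or more of the 5 genes, at median depths of 1026 and 885 UMIs.

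Each gene was also measured in nuclei picked by the other 4, so that its own UMIs took no part in picking them. The 5 genes were chosen together with earlier results of these data known. That each was high beside the others, here and in the pairs below, is therefore partly fixed by that choice. After thinning every nucleus to 1000 UMIs, which takes depth out of the comparison, Cdh20 was at 239 CPM (95% exact Poisson interval 119 to 428) in the 46 DNp63cKO nuclei with 2 or more of the other 4 genes and at 25.3 CPM (14.2 to 41.8) in the 592 below that. In control it was at 288 CPM (219 to 371) in 205 nuclei and 46.2 CPM (34.9 to 60.0) in 1212. Intervals here and below cover counting error only, not differences between mice or pools. The other genes showed smaller ratios. On the log2 scale of CPM + 5, Htr4 was 1.54 higher in DNp63cKO and 1.46 in control, Ksr2 1.39 and 1.96, and Gm28856 1.36 and 2.10. Pcbp3 was 1.58 higher in control (interval 1.24 to 1.95), but its ratio of 0.78 in DNp63cKO had an interval that included 0 (-0.24 to 1.67).

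**Figure D1:**
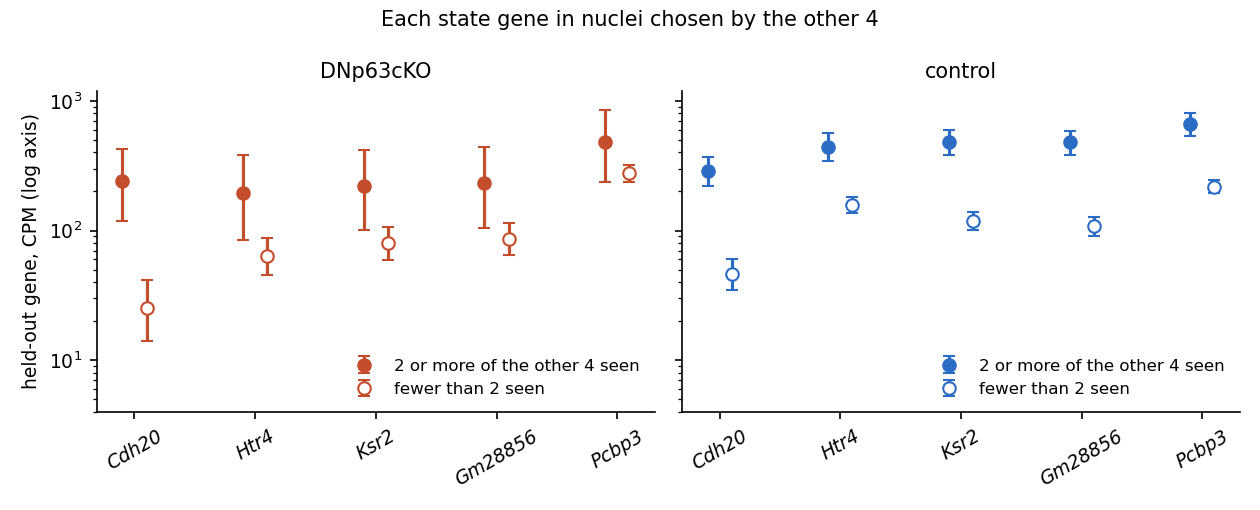
CPM of each state gene (log axis) in nuclei thinned to 1000 UMIs, for nuclei with 2 or more of the other 4 genes (filled) and with fewer (open), in each library, with 95% Poisson intervals. Cdh20 is separated most, at 239 against 25.3 CPM in DNp63cKO and 288 against 46.2 CPM in control, and in DNp63cKO the plotted intervals of the other 4 genes overlap.

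Seen in pairs, Htr4 went with Cdh20 in both libraries. At 1000 UMIs, 36.4% of 22 DNp63cKO nuclei with Cdh20 also had Htr4, against 5.52% of 616 nuclei without Cdh20, and in control the shares were 37.6% of 93 and 12.8% of 1324. Control nuclei with Ksr2 had Gm28856 in 24.9% of 189, against 8.14% of 1228 without Ksr2. In DNp63cKO the same pair stood at 11.5% of 52 and 7.51% of 586, with intervals that overlap (4.35 to 23.4% and 5.51 to 9.95%). Pcbp3 and Ksr2 did not go together in DNp63cKO, with Ksr2 in 8.39% of 155 nuclei with Pcbp3 and 8.07% of 483 without it, and did in control, at 22.6% of 288 and 10.98% of 1129.

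The state made up a smaller part of the epithelium in DNp63cKO. Its share was 11.6% of 1004 epithelial nuclei (exact Clopper-Pearson interval 9.64 to 13.7%) and 17.4% of 2722 in control (16.0 to 18.9%). Thinned to 1000 UMIs, with 182 and 805 shallower nuclei left out, the shares were 5.86% (67 of 1143) and 12.6% (293 of 2325), and they were 3.90% and 7.10% at 700 UMIs, 9.28% and 21.9% at 1500 and 10.8% and 30.1% at 2000. The share thus moved with depth in each library and was lower in DNp63cKO at each of these depths. Stromal nuclei passed the 2-gene limit in 0% and 0.686% at 1000 UMIs and in 1.99% and 2.86% at 2000. Thinning also lets nuclei pass the limit on other lineages, and with classes kept from the full counts the shares at 1000 UMIs were 6.81% and 12.1%. Asking for 3 of the 5 genes gave 2.69% and 8.74%. A lower share of the epithelium can come from fewer such cells, from a different yield of nuclei or from less of the 5 RNAs per nucleus, which cannot be told apart with 1 pool each.

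**Figure D2:**
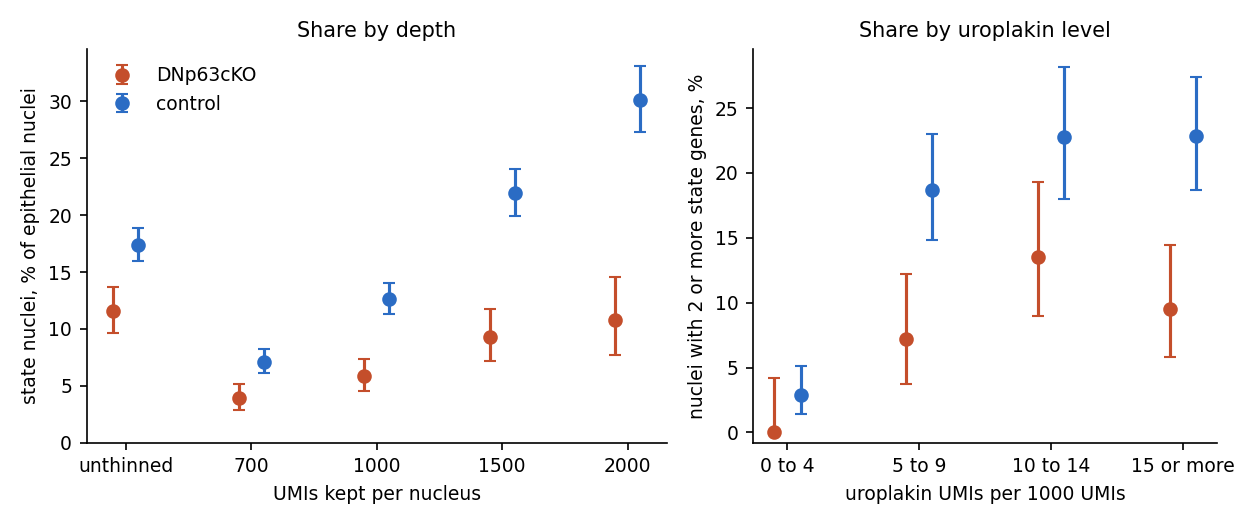
Left, state nuclei as a percent of epithelial nuclei, unthinned and thinned to 700 to 2000 UMIs. Right, percent of nuclei with 2 or more state genes at 1000 UMIs, among state and other epithelium, by the number of uroplakin UMIs per 1000. Points are the 2 libraries with 95% Clopper-Pearson intervals. DNp63cKO is below control at each depth, and nuclei with 0 to 4 uroplakin UMIs hold the lowest shares, 0% and 2.89%.

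Members lay among uroplakin-bearing nuclei. Uroplakins were counted as the summed UMIs of Upk1a, Upk1b, Upk2 and Upk3a, which the rule does not use, after thinning to 1000 UMIs. Classes were called on the full counts, where members are deeper, so thinning does not take depth out of the class medians. In control the median was 14 UMIs in the state, 6 in other epithelium, 4 in basal nuclei and 1 in stromal nuclei. In DNp63cKO it was 12 in the state and 11 in other epithelium, so the difference seen in control was small there, with 3 in basal and 1 in stromal nuclei. Nuclei with 0 to 4 uroplakin UMIs had 2 or more state genes in 0 of 86 in DNp63cKO (upper limit 4.20%) and 2.89% of 380 in control. The share was highest at 10 to 14 uroplakin UMIs in DNp63cKO and level from there on in control: it was 7.19%, 13.5% and 9.50% in DNp63cKO nuclei with 5 to 9, 10 to 14 and 15 or more, and 18.7%, 22.8% and 22.8% in control. At each uroplakin level the DNp63cKO share was the lower of the pair, with intervals that overlap in the lowest and the 10 to 14 groups. Nuclei with 15 or more uroplakin UMIs were also deeper before thinning than those with 0 to 4. Their median was 1800.5 against 1276.5 UMIs in DNp63cKO and 2638 against 1293.5 UMIs in control. With membership from the full counts, the control share was 4.74% at 0 to 4 and 55.4% at 15 or more.

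Placed by other genes, the state held together in control and only loosely in DNp63cKO. Each epithelial nucleus, thinned to 1000 UMIs, was placed by 30 principal components of genes the rule does not use, and its 15 nearest neighbours were counted. Membership was called on the full counts, so thinning does not take depth out of the choice of members. In control 54.1% of a member's neighbours were members, where members were 22.7% of the nuclei placed. The neighbours of other epithelium held 15.8% members, those of basal nuclei 6.27% and those of cycling nuclei 11.7%. In DNp63cKO members had 20.6% member neighbours where members were 13.3% of the nuclei placed, and other epithelium had 15.6%. Unthinned, the values for members were 57.2% and 27.0%. Members of both libraries thus carried uroplakin RNA, and calling them a state apart from other epithelium rests mainly on the control library.

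Beyond the 5 genes, few genes were far higher in the state. Of 9336 genes with 20 or more UMIs over state and other epithelium in each library, 15 (0.161%) were 2-fold or more higher in the state in both libraries, 100 (1.07%) in DNp63cKO and 151 (1.62%) in control. The ratio is log2 of CPM + 5 in the state over CPM + 5 in other epithelium, and intervals are conditional binomial ones of the plain ratio. All 15 are among the 20 named below, of which 17 in DNp63cKO and 20 in control had intervals above 0. The median over all 9336 genes was -0.06 in DNp63cKO and -0.12 in control. When other epithelium was weighted to the depth of the members, 15 of the 20 in DNp63cKO and 10 of the 20 in control were still 2-fold or more higher. The lowest weighted ratios in control were those of Me1 (0.29), Tnfaip2 (0.61), Prss27 (0.66), Tmem56 (0.72) and Cyp4f15 (0.73). Ratios given below for single genes are not weighted.

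Pla2r1 led them. It encodes a receptor for secreted phospholipase A2 and lies on the minus strand of chromosome 2 from 60417543 to 60553308. It stood at 234 CPM in DNp63cKO members and 44.5 CPM in other epithelium (log2 2.27, interval 1.79 to 3.01), and at 587 and 178 CPM in control (log2 1.69, 1.54 to 1.90). Detection was also read at 1000 UMIs, with classes called on the full counts. A Pla2r1 UMI was seen in 18.3% of DNp63cKO members, 5.10% of other epithelium and 4.52% of stromal nuclei. In control the shares were 40.0%, 12.2% and 5.32%. The level in DNp63cKO was thus lower than in control inside the state (log2 -1.31) and outside it (log2 -1.89), while the step between the classes was there in both.

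The named genes are described by role, in an order chosen after their values were seen. Unc13c, which primes synaptic vesicles in neurons, was at 92.0 against 26.3 CPM in DNp63cKO and 214 against 61.1 CPM in control, and stromal nuclei had 75.02 and 102 CPM of it. Syt1, a calcium sensor of vesicle release from the list of neuron markers and not one of the 20, was at 41.4 against 31.3 CPM in DNp63cKO (log2 0.35) and 48.4 against 9.74 CPM in control (log2 1.86), but stood higher in stromal nuclei, at 209 and 149 CPM. The 16 neuroendocrine and neuron markers summed to 59.8 CPM in DNp63cKO members and 66.9 CPM in control members, most of it Syt1. Pigr, the receptor that carries antibodies across epithelia, was at 46.0 against 13.1 CPM and 66.1 against 13.7 CPM. Prss27, a serine protease, was 1.96 and 1.24 higher on the log2 scale, and Angptl6, a secreted angiopoietin-like protein, 0.96 and 1.58.

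Several of the named genes encode enzymes. Ncf1, a subunit of the NADPH oxidase known from phagocytes, was at 147 against 49.5 CPM in DNp63cKO (log2 1.48, 0.88 to 2.24) and 181 against 47.8 CPM in control (log2 1.82, 1.59 to 2.27), with 10.8 and 8.64 CPM in stromal nuclei. The 8 macrophage markers summed to 18.4 CPM in DNp63cKO members and 20.2 CPM in control members, below other epithelium (57.6 and 27.0 CPM). Me1, the malic enzyme that makes NADPH, was 0.95 and 1.12 higher on the log2 scale, and Cyp4f15, a fatty acid hydroxylase of a family with near copies, 1.31 and 1.42. The glycosyltransferases Gcnt2 (log2 1.38 and 1.11) and Fut9 (0.94 and 1.01) build branched and fucosylated sugar chains.

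The remaining named genes have varied roles. Pak3, a kinase downstream of Rac and Cdc42, was at 59.8 against 24.3 CPM in DNp63cKO and 176 against 44.3 CPM in control. Frmd4a, a polarity scaffold, was 1.76 and 1.13 higher on the log2 scale, Adcy9, an adenylyl cyclase, 1.06 and 0.98, and Tnfaip2 1.11 and 0.96. Snhg11, a non-coding host of small nucleolar RNA, was at 147 against 36.4 CPM and 208 against 81.0 CPM, and Pvt1, the non-coding neighbour of Myc, 1.03 and 1.18 higher on the log2 scale. The other 4 were Ttc39a (1.44 and 1.45), Lancl3 (1.05 and 1.15), Tmem56 (1.05 and 1.01) and Ttc22 (1.07 and 1.004). Without the limit on genes of other lineages in the epithelial rule, Unc13c and Frmd4a were 0.27 and 0.26 higher in DNp63cKO.

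**Figure D3:**
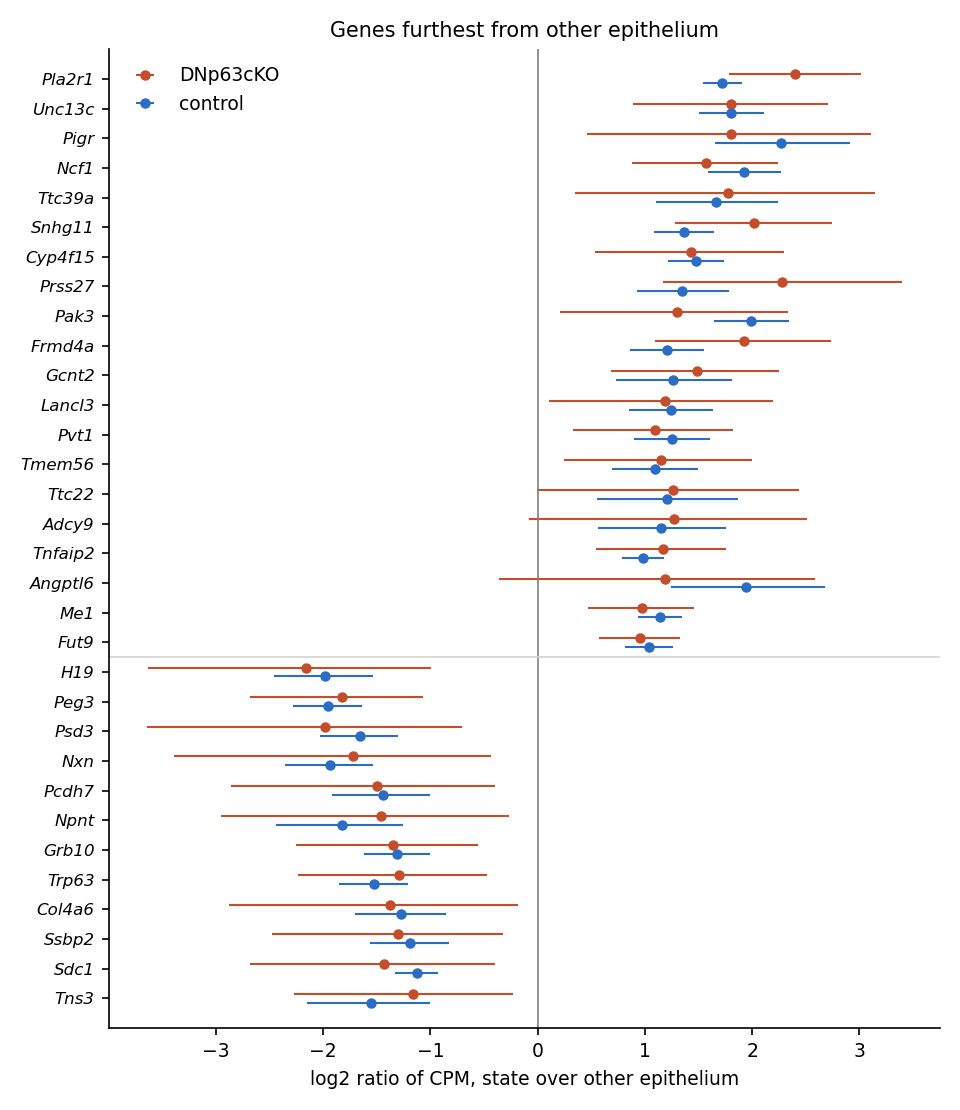
Log2 ratio of CPM, state over other epithelium, for the 20 higher and 12 lower named genes, with 95% conditional binomial intervals for counting error. Genes considered for naming had 20 or more CPM in the state in each library, so genes nearly absent from members are not drawn. Red is DNp63cKO and blue control; Pla2r1 is at the top (234 against 44.5 CPM and 587 against 178 CPM), and the intervals of Angptl6, Ttc22 and Adcy9 in DNp63cKO reach below 0.

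More genes were lower than higher. In both libraries 101 genes (1.08%) were 2-fold or more lower in the state, 533 (5.71%) in DNp63cKO and 318 (3.41%) in control, and the 12 named all had intervals below 0 in both. The UMI minimum was summed over both classes. Other epithelium holds 989009 UMIs and members 217510 in DNp63cKO, and 2258245 and 1240552 in control. A gene nearly absent from members can thus pass through other epithelium alone, so the lean to lower genes is partly fixed. After weighting for depth, 12 genes were 2-fold or more higher in both libraries and 30 lower. Of the 12 named lower genes, 11 were then 2-fold or more lower in DNp63cKO and 3 in control. The rule sets basal nuclei aside by 4 other genes and so caps these in members and other epithelium. Basal levels of the 12 are thus partly fixed by the choice of nuclei, and the share over all genes was not counted. In basal nuclei 11 of the 12 stood above other epithelium in each library.

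Trp63 was among them. The targeted gene lies on chromosome 16 from 25683763 to 25892102. DNp63cKO members had 13 UMIs of it (59.8 CPM), against 147 CPM in other epithelium, and control had 78.2 and 225 CPM in these classes. Basal nuclei had 195 and 325 CPM and stromal nuclei 30.01 and 48.0 CPM. Inside the state, DNp63cKO over control was -0.36 on the log2 scale, with an interval that included 0 (-1.35 to 0.45). With 1 count for the whole gene, the deletion of ΔNp63 cannot be checked.

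3 imprinted genes stood with it. H19, a maternally expressed non-coding RNA of fetal tissue, was at 27.6 against 123 CPM in DNp63cKO and 37.1 against 147 CPM in control, and at 720 and 278 CPM in basal nuclei. Peg3, a paternally expressed zinc finger gene, was at 69.0 against 244 CPM and 74.97 against 290 CPM. Grb10, an imprinted adaptor of growth factor receptors, was at 64.4 against 164 CPM and 86.3 against 213 CPM. They were gathered here after their values were seen, and stromal nuclei carried 165 and 150 CPM of H19, 406 and 267 CPM of Peg3 and 568 and 552 CPM of Grb10. The part of free stromal RNA in these differences was not tested.

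The other 8 of the 12 have varied roles. Npnt, an integrin ligand, had a log2 ratio of -1.31 in DNp63cKO and -1.63 in control. Col4a6, a basement membrane collagen, stood at -1.24 and -1.19, Tns3, a focal adhesion protein, at -1.08 and -1.39, and Sdc1, a cell surface proteoglycan, at -1.32 and -1.11. Psd3 (-1.78 and -1.58), Nxn (-1.53 and -1.83), Pcdh7 (-1.37 and -1.34) and Ssbp2 (-1.21 and -1.12) were the other 4. Pcdh7 is also a stromal gene here, at 636 and 717 CPM in stromal nuclei against 32.2 and 40.3 CPM in members.

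The named genes were also followed by how many of the 5 state genes a nucleus showed. They were chosen by comparing nuclei with 2 or more state genes with those below, so the step from 1 to 2 is largely fixed by that choice. The same nuclei are used here, so the other steps are favoured as well. How many of all genes go 1 way at every step was not counted. In control, 19 of the 20 higher genes went up at every step from 0 to 1, 2 and 3 or more state genes, and 12 of the 12 lower genes went down at every step. In DNp63cKO 11 of 20 and 6 of 12 did, with 27 nuclei in the top group. Pla2r1 was at 136, 247, 412 and 719 CPM over these steps in control and at 30.9, 64.1, 137 and 560 CPM in DNp63cKO. Peg3 was at 340.5, 209, 95.6 and 59.4 CPM in control and at 264, 214, 77.6 and 40.0 CPM in DNp63cKO. Trp63 was at 258, 173, 105 and 58.0 CPM in control and at 166, 118, 77.6 and 0 CPM in DNp63cKO, where 0 UMIs in the top group allow up to 73.8 CPM. Nuclei that show more state genes are also deeper, at median depths of 1053, 1471, 2036 and, with 3 genes, 2255 UMIs in control, and the part of depth in these steps was not tested.

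**Figure D4:**
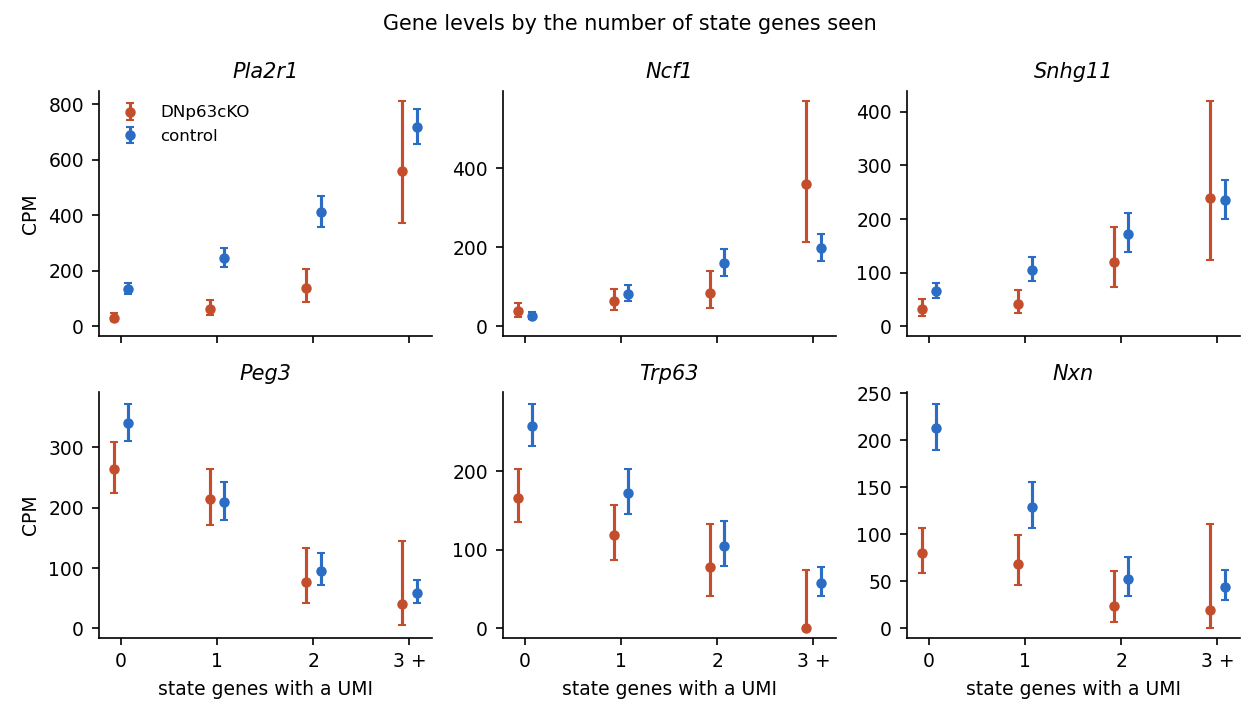
CPM of 6 named genes in nuclei with 0, 1, 2 and 3 or more of the 5 state genes (state and other epithelium), in each library with 95% Poisson intervals. Pla2r1, Ncf1 and Snhg11 go up along the axis and Peg3, Trp63 and Nxn go down in both libraries, with wide intervals for the 27 DNp63cKO nuclei at the right.

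Since members carried more uroplakin RNA, the comparison was repeated, as a choice made after seeing the data, in nuclei with 1% or more of their UMIs from the 4 uroplakins, 84 members in DNp63cKO and 341 in control. Over all measured genes in these fewer nuclei, 2 were 2-fold or more higher and 3 lower in both libraries, against 15 and 101 in the main comparison. The named genes were picked in a comparison that holds the same nuclei, so their direction here is largely fixed by that choice. All 20 higher genes kept their direction in both libraries, with a median log2 ratio of 0.93 in DNp63cKO and 0.78 in control, and 9 and 5 of them were still 2-fold or more higher. Pla2r1 was at 2.25 and 1.07, Pigr at 1.02 and 1.27, and Ncf1 at 0.86 and 1.14. Of the 12 lower genes, 11 and 12 kept their direction, with medians of -0.74 and -0.69. Npnt was at 0.94 in DNp63cKO and H19 at -0.08 there. In these nuclei Trp63 was at -0.67 and -0.63.

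Genes of the luminal side of the urothelium were mostly higher in the state. Of 14 measured genes of uroplakins and superficial urothelium, 11 were higher in the state in both libraries and 2 lower (over all genes, 21.2% were higher in both and 39.1% lower in both). The medians were 0.31 in DNp63cKO and 0.61 in control. Upk1a was at 4257 against 2843 CPM in DNp63cKO and 3796 against 1722 CPM in control, and Psca at 2414 against 1848 CPM and 2378 against 877 CPM. Krt20, a keratin of mature superficial cells, was at 308 against 305 CPM in DNp63cKO and 547 against 394 CPM in control. None of the 14 was 2-fold or more higher in both, and weighted for depth the medians were 0.14 and 0.21.

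Basal genes that the rule does not use were low. Of 13 measured, 10 were lower in both libraries, 6 of them 2-fold or more, and 2 were higher. Over all genes these shares were 39.1%, 1.08% and 21.2%. The medians were -0.94 and -1.10, and -0.76 and -0.69 after weighting for depth. Cdh3, the P-cadherin of basal cells, was at 0 against 20.2 CPM in DNp63cKO and 8.87 against 57.6 CPM in control, and the hyaluronan receptor Cd44 at 9.20 against 34.4 CPM and 24.2 against 81.0 CPM. Lama3, a laminin chain, was at 9.20 against 38.4 CPM and 18.5 against 73.5 CPM, with 2 UMIs each of Cd44 and Lama3 in DNp63cKO members. Dst, a cytolinker of hemidesmosomes, was among the 2 exceptions, at 478 against 379 CPM and 506 against 320 CPM. Because the rule caps 4 genes of the basal program, part of this is fixed by the choice of nuclei.

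Of 17 measured urothelial transcription factors, 6 were higher and 4 lower in both libraries, beside 21.2% and 39.1% of all genes. Grhl1, a grainyhead factor of surface epithelia, was at 221 against 124 CPM in DNp63cKO and 175 against 87.7 CPM in control, and its relative Grhl3 at 322 against 274 CPM and 521 against 228 CPM. Pparg, a nuclear receptor that drives urothelial maturation, was at 860 against 601 CPM and 1013 against 725 CPM. Its partner Rxra went the other way, at 73.6 against 115 CPM and 156 against 206 CPM, as did Klf5 at 299 against 380 CPM and 262 against 426 CPM. Gata3 turned between the libraries, at 0.20 in DNp63cKO and -0.40 in control, and Foxa1 stood at 0.11 and -0.01.

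Lists for the pathways around the state genes were examined next. No other serotonin gene was measured: of 21 genes for serotonin synthesis, receptors and transport, none reached the UMI minimum, and together they summed to 32.2 CPM in DNp63cKO members and 35.5 CPM in control members. Tph1 and Tph2, the enzymes that start serotonin synthesis, had 0 UMIs in members of both libraries. Of 23 measured genes of cAMP signalling, through which Htr4 acts, 3 were higher and 14 lower in both, beside 21.2% and 39.1% of all genes. Their medians were -0.41 and -0.45. The 3 higher were Adcy9, Sik1, a kinase induced by cAMP (82.8 against 44.5 CPM and 103 against 60.2 CPM), and Pde3b (96.5 against 83.9 CPM and 47.6 against 42.5 CPM). Gnas, the stimulatory G protein, was at 377 against 502 CPM and 347 against 474 CPM.

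Of 27 measured RAS and MAPK genes, 5 were higher and 11 lower in both, shares near those of all genes (21.2% and 39.1%), with medians of 0.04 and -0.23. Braf, Sos1 and Dusp16 were among the 5. Dusp16, a phosphatase of MAP kinases, was at 386 against 204 CPM and 405 against 342 CPM. The ERK feedback genes Spred1 and Spred2 were lower, at -1.23 (on 2 UMIs in members) and -0.62 and at -0.35 and -0.87. Of 20 other cadherins, 4 had enough UMIs, and 1 was higher (Cdh11, 0.19 and 0.16) and 1 lower (Cdh3) in both. The RNA-binding relatives of Pcbp3 showed no member higher and 2 of 3 lower in both.

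Lists of junctions and of signals were described in the same way, beside 21.2% of all genes higher in both and 39.1% lower. Of 16 measured tight junction genes, 9 were higher in both and 2 lower, with medians of 0.19 and 0.26. Weighted for depth, the medians were 0.05 in DNp63cKO and 0.18 in control. Among the 9 were the claudins Cldn8 (575 against 433 CPM and 445 against 223 CPM) and Cldn23 (423 against 359 CPM and 417 against 150 CPM). Of 8 measured desmosome genes, 2 were higher and 3 lower in both, near the shares of all genes, with medians of 0.02 and -0.14. Of 8 hedgehog genes, 7 were lower and 1 higher in both. Shh, the signal the urothelium sends to the mesenchyme, was at 32.2 against 40.4 CPM in DNp63cKO and 63.7 against 157 CPM in control. Of 12 BMP and TGFB genes, 8 were lower and 2 higher in both, among them the response genes Id2 (-0.54 and -1.26), Id3 (-0.89 and -1.45) and Smad7 (-0.88 and -0.99), while Bmp3 and Bmp7 were the 2 higher. Of 7 measured genes of the EGF family and its receptors, 3 were higher and 1 lower in both. Tgfa, an EGF receptor ligand, was at 124 against 49.5 CPM and 114 against 67.8 CPM.

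The libraries were also compared inside the state. Of 9460 genes with 20 or more UMIs over the members of both libraries, 234 (2.47%) were 2-fold or more higher in DNp63cKO members and 550 (5.81%) lower, with a median of -0.01 over all. Without the limit on other-lineage genes the balance turned, to 325 higher and 172 lower. The UMI minimum was summed over both libraries, and control members hold 1240552 UMIs against 217510 in DNp63cKO members. Genes low in DNp63cKO members can thus pass through control members alone, so the lean to lower genes is partly fixed by the minimum. The counts were 81 higher and 262 lower with a minimum of 50 UMIs, and 839 and 997 with none. The 10 highest and 10 lowest had the same sign in other epithelium in 20 of 20 genes and in stromal nuclei in 19 of 20, against 58.9% and 56% of all 9460 genes. In 19 of 20 they stood further from 0 in the state than in other epithelium, which their choice by the ratio in the state favours. The part of free RNA in the sign shared with stromal nuclei was not tested. Smooth muscle and fibroblast markers were also higher in DNp63cKO members, in 5 of 5 and 8 of 8 measured, beside 49% of all genes. Their medians were 0.93 and 0.94. They summed to 740 and 736 CPM, against 348 and 378 CPM in control members and 9112 and 9421 CPM in control stromal nuclei. Other epithelium showed the same rise, with medians of 0.79 and 0.58 and sums of 823 and 883 CPM in DNp63cKO and 490 and 512 CPM in control.

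Higher in DNp63cKO members were Gsdmc2, a gasdermin with near copies (299 CPM, against 21.8 CPM in control members, log2 3.505), and Msln, mesothelin, a surface protein of mesothelium (354 against 33.1 CPM, log2 3.24). In other epithelium the same ratios were 2.29 and 2.60. Gsdmc3 stood at 2.75 and Sprr2a3, a cornified envelope protein with near copies, at 1.54. Camk1, a calmodulin-dependent kinase, was at 2.07, Gpc5, a glypican, at 1.97, Itih2 at 1.73 and Bglap3, of the osteocalcin cluster of near copies, at 1.71. Scnn1b, a subunit of the epithelial sodium channel, was at 244 against 70.1 CPM (log2 1.73) and Slc8a1, a sodium and calcium exchanger, at 239 against 80.6 CPM (log2 1.51), with 2046 and 1762 CPM of Slc8a1 in stromal nuclei.

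Lower in DNp63cKO members were Ccnd2, a cyclin that drives entry into the cell cycle (211 against 1357 CPM, log2 -2.65, interval -3.14 to -2.26), Rgs5, a regulator of G protein signalling (50.6 against 554 CPM, -3.33), and Ly6d, a surface protein of layered epithelia (152 against 997 CPM, -2.68). In other epithelium these stood at -1.06, -1.80 and -1.99. Chst2, a sulfotransferase of heparan and glycan chains, had 1 UMI in DNp63cKO members and 222 in control members (4.60 against 179 CPM). Lypd3 and Pfkm also had 1 UMI in DNp63cKO members, Nectin1 had 2, Slc16a12 had 3 and Crip2 had 4, so their ratios of -2.77, -2.34, -2.65, -2.77 and -2.74 rest on few molecules. Sdc1, lower in the state than outside it, was also lower in DNp63cKO (36.8 against 210 CPM, -2.36).

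**Figure D5:**
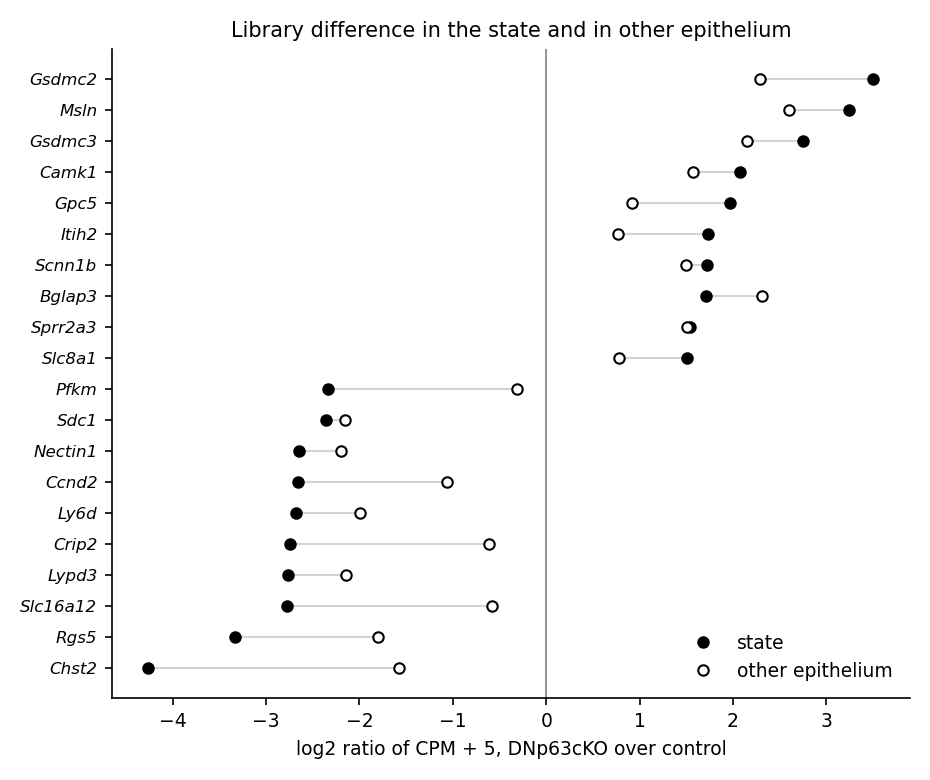
Log2 ratio of CPM + 5, DNp63cKO over control, for the 10 highest and 10 lowest genes of the state, in the state (filled) and in other epithelium (open). All 20 open points lie on the same side of 0 as the filled ones, and Chst2 (-4.26 and -1.58) and Ccnd2 (-2.65 and -1.06) are among those furthest apart.

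Of the 20 genes that marked the state in both libraries, 17 were lower in DNp63cKO than in control inside the state and 15 in other epithelium, beside 51% of all genes lower and 49% higher in the state. Genes that p63 is known to activate in layered epithelia were lower in DNp63cKO members in 12 of 17 measured, with a median of -0.58, against -0.76 in other epithelium. Notch genes were lower in 8 of 10 (median -0.59, and -0.72 in other epithelium). Among them were Notch1 at 46.0 against 152 CPM and Jag1 at 18.4 against 79.0 CPM. Desmosome genes were lower in 7 of 9 (median -0.67, and -0.36 in other epithelium), among them desmoplakin Dsp at 253 against 453 CPM. Uroplakin and superficial genes were split, with 8 of 14 higher and 6 lower in DNp63cKO members. Their median was 0.07, and 0.40 in other epithelium.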

How the data were processed

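Single-nucleus RNA was read from 1 pool of newborn ureters per genotype. The authors deposited a matrix of raw UMI counts for each library. Per the submitters' processing notes, the build was mm10 and the tools included Seurat 4.0.5, R 4.0.5, STAR 2.7.11a and STARsolo. What each tool did, the annotation, the barcode filter and whether introns were counted is not given in the sources used here. In all, the libraries held 9859451 UMIs (DNp63cKO) and 16063644 UMIs (control), with medians of 1298 and 1124.5 per nucleus and a minimum of 500, and 5491 and 8889 nuclei passed the filter. They shared 58 barcodes, 2 and 3 of them members and 0 in both.

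CPM were computed here from UMIs summed over the nuclei of a class in 1 library, so deeper nuclei weigh more. Ratios are log2 of CPM + 5. Intervals are exact at 95% and cover counting error only. Random draws used a fixed seed, and the scripts were tested on simulated data (Python 3.11.15, numpy 2.4.6, scipy 1.17.1, pandas 2.3.3, scikit-learn 1.9.0, scanpy 1.11.5). Of 32589 gene IDs, 32522 were found in GENCODE M21, which gave coordinates. Antisense and overlapping genes cannot be told apart where the counting used no strand, which is not given. No doublets were removed, since the rule has no such step. Scrublet's automatic threshold called 0 nuclei in either library and so had not worked, and leaving out the top 5% by score (303 and 451 nuclei, 0 and 13 of them members) was an alternative.

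Members, gene lists and comparisons were chosen with earlier results of these data known. Named genes outside the rule had 20 or more UMIs over both classes and 20 or more CPM in the state in each library. They are the 20 highest and 12 lowest by the smaller of the 2 libraries' ratios, with 1 sign in both and after weighting for depth, then the 10 highest and 10 lowest ratios of DNp63cKO over control among genes with 50 or more UMIs and 30 or more CPM in a library. Some list members are not reported here. Mitochondrial, haemoglobin, Xist and Y-linked genes and gene models with Gm or Rik names were left out of these. Fcamr and AA986860 fall outside the rule and were picked after their values were seen. Lists are given by counts and medians. Their examples were to be up to 5 members by size of the ratio, but several were chosen for their role after their values were seen, so counts and medians stand for a list and examples do not. Alternatives covered the pseudocount, UMI minimum, depth, weight of nuclei, comparison nuclei, rule limits, doublets, scaling and nuclei with Y-linked UMIs. The 3 alternatives on other-lineage genes, shared barcodes and uroplakin level were chosen after seeing the data.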

Additional observations from a re-analysis of the deposited data

Results flagged for a closer look

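6 of the 10 genes that were lowest in DNp63cKO members relative to control members stood on opposite sides of other epithelium in the 2 libraries. Each was lower in the state than in other epithelium in DNp63cKO and higher, or level, in control. The log2 ratios, state over other epithelium, were -0.92 in DNp63cKO and 1.76 in control for Chst2, -0.69 and 0.84 for Rgs5, -0.59 and 1.60 for Slc16a12, -1.30 and 0.83 for Crip2, -0.74 and 0.85 for Ccnd2, and -2.00 and 0.03 for Pfkm. The DNp63cKO intervals of Chst2 (-6.92 to 1.22), Rgs5 (-1.80 to 0.16) and Slc16a12 (-3.13 to 0.97) included 0. So did the control interval of Pfkm (-0.47 to 0.53). Of the 9336 genes compared, 21.2% were higher in both libraries and 39.1% lower in both, and the rest did not share a sign. Unlike signs are thus common among all genes. With 1 library per genotype the difference between the libraries was not tested. Ccnd2 and Rgs5 rest on 46 and 11 UMIs in DNp63cKO members, and the other 4 on 1 to 4 UMIs. These genes were picked for their low ratio in DNp63cKO members, so a low value there is partly fixed by the choice.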

How the results depend on the processing

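Counts of genes past 2-fold depended on the settings. For the 15 genes higher in the state in both libraries, the count was 5 with 20 CPM added, 27, 8 and 33 with a minimum of 10, 50 or no UMIs, 36 as a mean over nuclei, 40 against all other epithelium, 33 with 3 of 5 state genes and 2 at 1% or more uroplakin UMIs. For the 101 genes lower, it was 152 and 24 with 1 and 20 CPM added, 152, 33 and 195 with those UMI minimums, 30 weighted for depth, 271 against all other epithelium, 181 with 3 of 5 genes, 223 without the limit on other lineages and 3 at 1% uroplakin UMIs. For the 234 genes higher in DNp63cKO members, it was 360 and 76 with 1 and 20 CPM added, 432, 81 and 839 with those minimums and 595 with 3 of 5 genes. For the 550 lower, it was 151 with 20 CPM added, 262 and 997 with a minimum of 50 or none, 1215 with 3 of 5 genes and 172 without the limit on other lineages. A lower minimum or a smaller added CPM lets in genes of few UMIs. The share of the state was 2.69% and 8.74% with 3 of 5 genes, 20.7% in control with 4 of 12 epithelial genes, 3.90% and 7.10% at 700 UMIs, 5.86% and 12.6% at 1000, 9.28% and 21.9% at 1500, and 30.1% in control at 2000. Held out at 1000 UMIs, Cdh20 in DNp63cKO was at 3.01, Htr4 in control at 1.46 and Pcbp3 in control at 1.58, against 1.60, 1.05 and 1.16 unthinned. Ttc22 in DNp63cKO turned to -0.22 with 3 of 5 genes and Npnt in DNp63cKO to 0.94 at 1% uroplakin UMIs, and the cause was not tested. No other named gene turned sign under the settings run on it. No paired analysis was possible because each group has 1 library. Depth limits the DNp63cKO values: its 116 members hold 217510 UMIs, against 1240552 in control, so a gene at 20 CPM there rests on about 4 UMIs.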

Other observations

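The neighbourhood of Gm28856 held other genes that were high in the state. On GRCm38 chromosome 1, within 100 kb of Gm28856, AA986860 lies 21.8 kb away on the same strand, and it stood at 864 CPM in DNp63cKO members and 623 CPM in other epithelium (log2 0.47) and at 785 and 327 CPM in control (log2 1.2498). Fcamr, a receptor for IgA and IgM, lies 16.5 kb away on the same strand and had 1 UMI in DNp63cKO members and 23 in control members (18.5 against 2.21 CPM in control). Pigr lies 42.3 kb away on the same strand and is among the genes described above (log2 1.49 and 1.92). Yod1, 42.0 kb away, and Pfkfb2, 37.1 kb away, were not higher, at -0.32 and -0.26 and at 0.10 and -0.11. Around Htr4, Fbxo38 was at 0.12 and 0.28 and Spink10 at 0.15 and 0.07. Around Ksr2, each measured neighbour was near 0 in 1 library, among them Rfc5 at 0.71 and 0.02 and Wsb2 at -0.11 and 0.57. Around Pcbp3, Col6a1 was at 0.25 and -0.23. The state genes, AA986860 and Fcamr were looked at with their values known, so this is a description of the region.

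Among genes for ion and solute transport, the urea transporter Slc14a1 was at 368 against 269 CPM in DNp63cKO and 461 against 179 CPM in control, the potassium channel Kcnma1 at 280 against 212 CPM and 381 against 168 CPM, and Kcnj15 at 101 against 84.9 CPM and 128 against 30.1 CPM. The chloride channel Ano1 was at 198 against 376 CPM and 232 against 764 CPM, the chloride cotransporter Slc12a2 at 115 against 231 CPM and 120 against 299 CPM, and the calcium channel Trpv4 at 9.20 against 46.5 CPM and 29.0 against 109 CPM, with 2 UMIs of Trpv4 in DNp63cKO members. Over the list of 16 measured, 4 were higher and 6 lower in both libraries, near the shares of all genes (21.2% and 39.1%), with medians of -0.11 and 0.05.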
